A study of Mus musculus with 16 samples.

Results

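The genes described here are 6 genes of thermogenic brown fat, Ucp1, Cox8b, Cidea, Cox7a1, Elovl3 and Ppargc1a, out of 12394 genes with a probe set of their own on the array. They were read through every probe set that the probe annotation gives to 1 of these symbols alone, which came to 10 probe sets, 5 of them for Ppargc1a and 1 for each other gene. The 6 genes were brought together with their tumour and gland values already known. Those values are therefore given as a description with no test, and only the difference between the tumour types carries a p.

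Brown fat burns fatty acids to make heat. Cold acts through noradrenaline and beta-adrenergic receptors, which raise cyclic AMP, release fatty acids from lipid droplets and switch on the coactivator Ppargc1a, and fatty acids then open the uncoupling protein Ucp1, so that the respiratory chain runs without making ATP. In mice the mammary epithelium lies in a fat pad in which brown-type adipocytes can occur among white ones, and several of these genes are also used outside brown fat, Cox8b and Cox7a1 in striated muscle and Cidea in the milk-secreting epithelium.

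The arrays, Affymetrix Mouse Genome 430A 2.0, each gave 1 signal per probe set from total RNA. There were 7 mammary tumours of mice with the STAT5ca transgene, a constitutively active STAT5, 6 mammary tumours of mice with the STAT5Δ750 transgene, a STAT5 truncated at its C-terminus, and 3 normal mammary glands with no transgene stated, all on an FVB/N background. The labels used here give no promoter of the transgenes, no age of the mice, no stage of the glands and no histology, and do not say whether each sample came from a different mouse, so that a p measures the spread between these samples. Arrays are named by their label numbers.

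Among these 16 arrays 2 stood apart. The summed deposited signal of 7 luminal epithelial markers was 776.9 on STAT5ca_177, against 17189.4 to 25613.6 on the other STAT5ca tumours, and the members' results are also given without it. Gland 6 was the other: on glands 1, 4 and 6 the signal of Wap was 277.1, 31.1 and 7606.4 and that of Lalba 188.2, 163.4 and 2691.1, both being milk protein genes that are strongest in late pregnancy and lactation. Csn2, a casein gene, was at 6317.5, 4583.3 and 8746.9 on the same glands. These milk genes were looked up after the values were seen.

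The sequences just before the transcription starts are shown for the members that the RefSeq promoter table holds, since most of the members lay lower together in tumours. The table matched 4 of the 6 members. Each sequence is the 250 bases 5′ of the start, written 5′ to 3′ on the gene's strand in build GRCm38.p6, Ucp1 at chr8:83290098-83290347 on the plus strand, Cox8b at chr7:140900447-140900696 on the minus strand, Cox7a1 at chr7:30183921-30184170 on the plus strand and Ppargc1a at chr5:51567726-51567975 on the minus strand. Capitals mark matches, on either strand, to 4 short motifs: AGGTCA, a half-site of nuclear receptors, TGACG, a half-site of factors that answer to cyclic AMP, the E-box CAGCTG, and the TATA box TATAAA.
Ucp1: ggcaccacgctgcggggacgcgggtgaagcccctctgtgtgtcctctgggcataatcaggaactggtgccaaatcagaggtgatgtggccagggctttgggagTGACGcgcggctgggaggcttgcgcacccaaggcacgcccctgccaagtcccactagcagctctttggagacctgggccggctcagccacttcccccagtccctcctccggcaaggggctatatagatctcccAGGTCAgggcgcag
Cox8b: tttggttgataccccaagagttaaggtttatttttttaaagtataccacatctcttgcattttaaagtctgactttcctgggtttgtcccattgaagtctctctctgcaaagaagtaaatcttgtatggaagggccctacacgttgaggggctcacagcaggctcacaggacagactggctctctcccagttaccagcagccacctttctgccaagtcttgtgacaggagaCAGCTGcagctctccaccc
Cox7a1: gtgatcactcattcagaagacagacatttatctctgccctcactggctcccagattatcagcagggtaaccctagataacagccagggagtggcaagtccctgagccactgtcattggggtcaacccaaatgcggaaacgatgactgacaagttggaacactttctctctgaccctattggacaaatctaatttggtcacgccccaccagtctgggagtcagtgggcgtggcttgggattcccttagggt
Ppargc1a: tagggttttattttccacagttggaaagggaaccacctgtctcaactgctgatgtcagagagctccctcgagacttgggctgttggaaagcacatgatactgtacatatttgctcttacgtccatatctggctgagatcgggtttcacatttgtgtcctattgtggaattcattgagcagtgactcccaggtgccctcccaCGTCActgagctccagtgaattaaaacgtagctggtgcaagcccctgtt
In the Ucp1 sequence AGGTCA lay 14 to 9 bases before the start and TGACG 147 to 143 bases before it. Cox8b held CAGCTG 19 to 14 bases before its start, and Ppargc1a held TGACG on the opposite strand, read as CGTCA, 49 to 45 bases before its start. Cox7a1 held none of these letters in the window. Over 32851 mouse promoter sequences of the same length AGGTCA was found in 14.0%, TGACG in 17.8%, CAGCTG in 13% and TATAAA in 12.4%, so such matches are common.

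Ucp1, the uncoupling protein that defines thermogenic adipocytes, was read by probe set 1418197_at. Its deposited signal was 0.7 to 86.5 with a median of 2.6 in STAT5ca tumours and 0.6 to 10.4 with a median of 2.8 in STAT5Δ750 tumours, against 3139.2, 2162.4 and 296.4 on glands 1, 4 and 6. All 13 tumours lay below the lowest gland, and the 2 highest tumours were STAT5ca_123 at 86.5 and STAT5ca_177 at 54.2. On the log2 scale, after the arrays were brought to a common median and 7.9 was added to every signal, Ucp1 differed from the glands by -5.98 ± 0.87 in STAT5ca tumours and by -6.66 ± 0.89 in STAT5Δ750 tumours (model estimate ± SE). The size of this difference rests on the amount added, since most tumour signals lay under it: in STAT5Δ750 tumours it was -8.19 with 1 added and -4.95 with the 40th percentile of all signals, 35.4, added.

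Cox8b and Cox7a1 encode the muscle and brown fat forms of small subunits of cytochrome c oxidase, the last complex of the respiratory chain. Cox8b (1449218_at) had signals of 2.0 to 168.3 with a median of 39.0 in STAT5ca tumours and 1.1 to 494.8 with a median of 42.8 in STAT5Δ750 tumours, against 3752.6, 4439.3 and 2516.0 on glands 1, 4 and 6. Every tumour was again below every gland, and the highest tumours were STAT5Δ750_178 at 494.8 and STAT5ca_177 at 168.3. Its log2 differences from gland were -5.93 ± 1.10 in STAT5ca tumours and -6.12 ± 1.13 in STAT5Δ750 tumours.

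Cox7a1 (1418709_at) had signals of 82.1 to 179.0 with a median of 132.4 in STAT5ca tumours and 14.4 to 210.3 with a median of 137.3 in STAT5Δ750 tumours, against 1860.3, 1967.3 and 906.7 on glands 1, 4 and 6. The groups did not overlap, and among tumours STAT5Δ750_160 and STAT5Δ750_165 were the lowest, at 14.4 and 38.7. Its log2 differences were -3.30 ± 0.58 and -3.81 ± 0.60 in STAT5ca and STAT5Δ750 tumours.

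Cidea, a lipid droplet protein that enlarges droplets in brown fat and takes part in milk fat secretion, was the member that varied most among STAT5ca tumours on the log2 scale, with an SD of 2.07 (n = 7). Its probe set 1417956_at had signals of 29.8 to 907.2 with a median of 85.6 in STAT5ca tumours and 11.2 to 631.7 with a median of 71.8 in STAT5Δ750 tumours, against 2094.2, 1848.5 and 885.5 on glands 1, 4 and 6. In all, 12 tumours lay below the lowest gland, and STAT5ca_124 at 907.2 lay just above gland 6. The next highest were STAT5ca_123 at 682.8 and STAT5Δ750_178 at 631.7. The log2 differences from gland were -3.39 ± 1.15 in STAT5ca tumours and -3.99 ± 1.18 in STAT5Δ750 tumours.

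Elovl3, an elongase of very long chain fatty acids that is induced by cold in brown fat, overlapped between tumours and glands. Its probe set 1420722_at had signals of 9.3 to 91.6 with a median of 15.5 in STAT5ca tumours and 9.9 to 28.0 with a median of 18.8 in STAT5Δ750 tumours, against 59.2, 47.0 and 15.2 on glands 1, 4 and 6. In all, 4 of 13 tumours lay below every gland and STAT5ca_124, at 91.6, above every gland. The log2 differences were -0.37 ± 0.50 in STAT5ca and -0.65 ± 0.51 in STAT5Δ750 tumours, beside SDs of 0.93, 0.40 and 0.87 among STAT5ca tumours, STAT5Δ750 tumours and glands (n = 7, 6 and 3).

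Ppargc1a, the coactivator that drives mitochondrial biogenesis and Ucp1 transcription, had 5 probe sets. The one with the highest mean, 1434100_x_at, had signals of 11 to 111.6 with a median of 36.2 in STAT5ca tumours and 7.2 to 122.8 with a median of 55.1 in STAT5Δ750 tumours, against 162.6, 160.1 and 104.0 on glands 1, 4 and 6. In all, 11 of 13 tumours lay below every gland, while STAT5ca_169 at 111.6 and STAT5Δ750_92 at 122.8 fell inside the range of the glands. Its log2 differences were -1.59 ± 0.66 in STAT5ca and -1.48 ± 0.67 in STAT5Δ750 tumours.

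The other Ppargc1a probe sets ran the same way where they gave a signal. On 1434099_at the differences were -1.79 ± 0.62 and -1.24 ± 0.64, with 10 of 13 tumours below every gland, and on 1437751_at they were -1.28 ± 0.47 and -0.92 ± 0.48, with 12 of 13. The remaining 2, 1456395_at and 1460336_at, did not exceed 35.4 on 3 arrays, the limit for testing, and were not fitted. On 1460336_at the groups overlapped widely, with 0.3 to 28.1 in STAT5ca tumours, 4.5 to 15.5 in STAT5Δ750 tumours and 3.3 to 20.4 in glands.

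**Figure D1:**
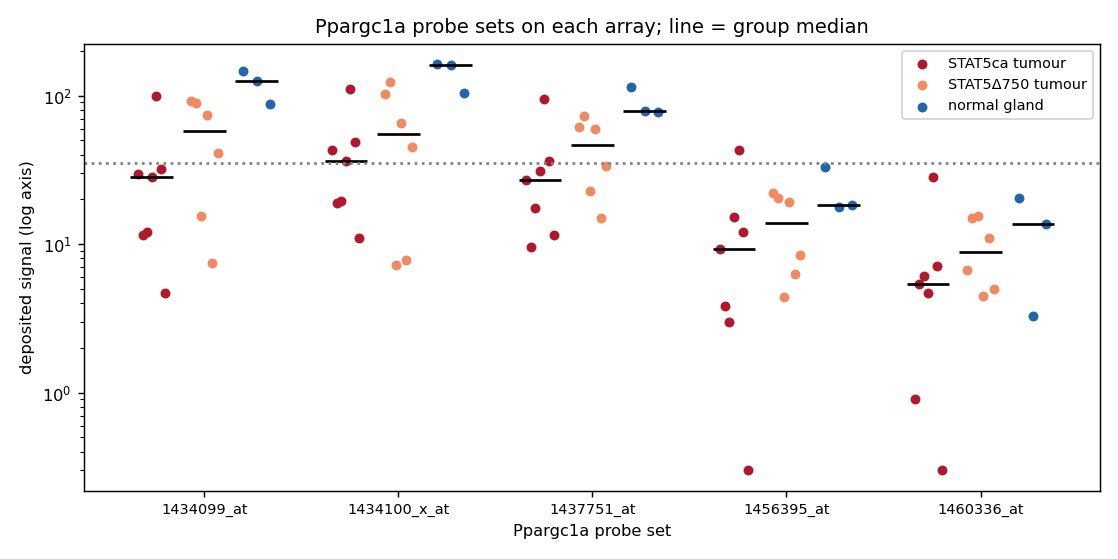
Deposited signal (log axis) of the 5 Ppargc1a probe sets on every array, 1 point per array, with the group median as a line and the testing limit of 35.4 dotted. The gland median is the highest of the 3 on every probe set, and on 1460336_at the 3 groups overlap.

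**Figure D2:**
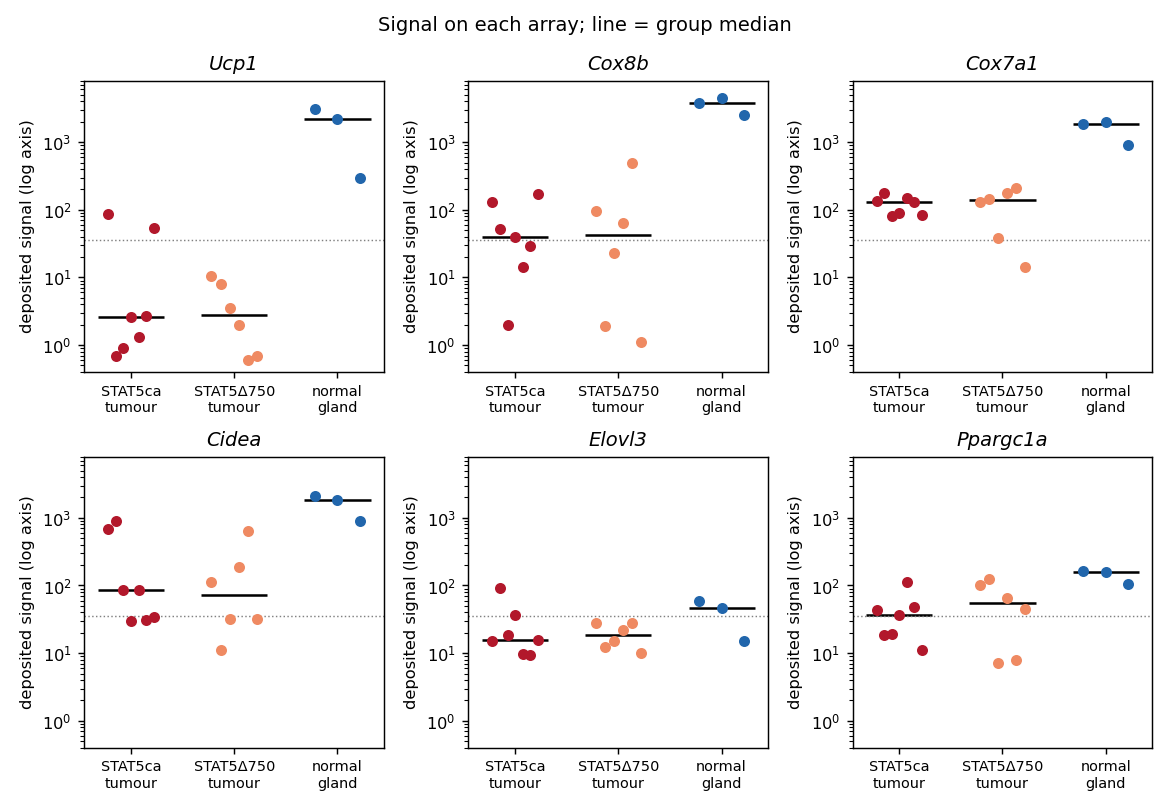
Deposited signal (log axis) of each gene on every array, 1 point per array in label order within its group, with the group median as a line and the testing limit of 35.4 dotted. For Ucp1, Cox8b and Cox7a1 all 13 tumours lie below all 3 glands, for Cidea 12 do, and for Elovl3 the groups overlap. The share of all genes that separate in this way is not given here.

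A limma model of 9260 genes, with a Benjamini-Hochberg threshold of 0.05, compared each tumour type with gland. Of all genes tested 23.3% were called in STAT5ca tumours, 9.4% as lower, and 19.7% in STAT5Δ750 tumours, 10.4% as lower. The members were chosen on these very comparisons, so no calls against gland are given for them. Nor is anything read from the members whose groups did not overlap, since the share of all genes that did so is not given here. Among respiratory chain genes that most cells share, picked here as examples, Sdha, Sdhb, Uqcrc1 and Cox5a also had 13 tumours below every gland, whereas Cox4i1 had 8 and Cox6a1 3. Such counts use deposited signals, before scaling. After scaling Cox5a differed from gland by only -0.21 ± 0.27 in STAT5ca and -0.16 ± 0.27 in STAT5Δ750 tumours on the log2 scale. Ucp1 and Elovl3 were each above 35.4 on only 2 tumour arrays and reached the testing limit through the glands. The median over the 6 members was -3.34 in STAT5ca and -3.90 in STAT5Δ750 tumours, beside medians of 0.25 and 0.08 over all genes. Both comparisons share the 3 glands. Without STAT5ca_177 the STAT5ca differences were -6.33 for Ucp1, -6.29 for Cox8b, -3.17 for Cidea, -3.26 for Cox7a1, -0.34 for Elovl3 and -1.42 for Ppargc1a.

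The tumour types did not differ detectably in any member. In STAT5ca minus STAT5Δ750 tumours, a difference the choice of members did not use, 0 of 6 members passed, as did 0% of the 9260 genes, of which 764 had an unadjusted p under 0.05. Ucp1 differed by 0.68 ± 0.70 on the log2 scale (95% interval -0.81 to 2.17), with a limma adjusted p of 0.823 and p = 0.427 in an exact two-sided permutation test over the 1716 splits of the 13 tumours. Without STAT5ca_177 the Ucp1 difference was 0.33.

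For Cox8b the difference was 0.18 ± 0.89 (95% interval -1.70 to 2.06), with a limma adjusted p of 0.962. Cidea differed by 0.60 ± 0.93 (-1.36 to 2.57) and Cox7a1 by 0.51 ± 0.47 (-0.49 to 1.51), with limma adjusted p of 0.878 and 0.789. Elovl3 and Ppargc1a differed by 0.29 ± 0.40 (-0.56 to 1.13) and by -0.11 ± 0.53 (-1.24 to 1.01), with limma adjusted p of 0.860 and 0.962. The exact permutation p of these 5 genes lay between 0.384 and 0.860. The intervals reach past a 2-fold difference in either direction for Cox8b, Cidea and Ppargc1a and in 1 direction for Ucp1, Cox7a1 and Elovl3, so the arrays do not show that the tumour types are alike. Without STAT5ca_177 the sign turned for Cox8b, at -0.17, and for Ppargc1a, at 0.05.

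Markers of fat and muscle moved with these genes. The deposited signals of 13 white adipocyte markers summed to 1796.7 to 8472.2 in STAT5ca tumours and 1753.8 to 15830.6 in STAT5Δ750 tumours, against 35479.1, 32890.8 and 40012.5 on glands 1, 4 and 6. The sum over 20 skeletal muscle markers was 606.0 to 14044.0 in STAT5ca tumours and 607.3 to 32780.2 in STAT5Δ750 tumours, against 101827.3, 122661.1 and 106482.6 on the glands. In both lists every tumour lay below every gland. The part of these tissues in the results was not tested, and in pieces of tissue fewer cells of a type and less RNA per cell cannot be told apart.

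Of the 13 adipocyte markers tested 10 fell in each tumour type by limma, with medians of -3.54 in both, among them Aqp7, a glycerol channel, at -3.36 ± 0.23 and -3.20 ± 0.24, Lep, the hormone leptin, at -4.09 ± 0.41 and -4.08 ± 0.42, and Pck1, an enzyme of glyceroneogenesis, at -5.58 ± 0.59 and -6.00 ± 0.61. These 3 are among the 4 adipocyte markers that reached the testing limit through the glands, so that their direction was set by that limit and no p is given. Of 20 muscle markers 20 fell in STAT5ca and 19 in STAT5Δ750 tumours, with medians of -6.30 and -5.57. Casq1, a calcium store protein, changed by -6.29 ± 0.70 and -5.77 ± 0.72, and Pygm, muscle glycogen phosphorylase, by -6.50 ± 0.89 and -5.75 ± 0.91. Of the muscle markers 0 reached the limit in this way. The share of all genes called lower was 9.4% in STAT5ca and 10.4% in STAT5Δ750 tumours.

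Among the tumours, the 2 arrays with the highest Cox8b, STAT5Δ750_178 and STAT5ca_177, also had the highest muscle sums, 32780.2 and 14044.0. The next 2 for Cox8b, STAT5ca_123 at 131.3 and STAT5Δ750_254 at 94.4, had muscle sums of only 646.9 and 1366.6. Cidea ran beside the adipocyte sum: its 3 highest tumours, STAT5ca_124, STAT5ca_123 and STAT5Δ750_178, had sums of 8472.2, 6667.6 and 15830.6, and of the other tumours only STAT5Δ750_254 was as high, at 7797.0 with a Cidea signal of 111.4. The highest Ucp1 tumour, STAT5ca_123, had an adipocyte sum of 6667.6, and STAT5Δ750_178, with the highest adipocyte sum of any tumour, had a Ucp1 signal of only 0.6. A few markers carry this sum. In STAT5Δ750 tumours Cd36, Car3, Thrsp and Fabp4 reached up to 5129.0, 4695.0, 3037.9 and 2154.4, whereas Adipoq reached 413.8. Cd36 and Thrsp were not called lower in either tumour type, so a high sum need not mean more adipocytes.

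For other cell types, the limma fit called 4 of 6 endothelial markers, 5 of 5 T cell markers and 3 of 3 B cell markers tested lower in each tumour type, and 1 of 7 luminal epithelial markers higher in STAT5ca and 3 of 7 higher in STAT5Δ750 tumours. All genes together gave 9.4% lower and 13.9% higher in STAT5ca tumours, and 10.4% and 9.29% in STAT5Δ750 tumours. The luminal count in STAT5ca tumours is near that share. Of the T cell and B cell markers 2 each reached the testing limit through the glands. Of 4 macrophage markers limma called 1 higher in STAT5ca and 0 in STAT5Δ750 tumours. At an unadjusted limma p under 0.05 there were 1 and 2. The 2 in STAT5Δ750 tumours went opposite ways, Cd14 at 1.41 and Csf1r at -1.57. The 3'/5' ratio of the beta-actin control probe sets, a measure of RNA integrity, was 1.763 to 5.378 in STAT5ca tumours and 1.268 to 3.524 in STAT5Δ750 tumours. It was 1.073 to 1.248 in glands, so that every tumour was above every gland. The Gapdh control did not separate the groups. Its ratio was 0.8413 to 1.034 in glands and 0.7569 to 0.8639 in STAT5Δ750 tumours. In STAT5ca tumours it was 0.7908 to 1.713, above every gland only on STAT5ca_123, STAT5ca_124 and STAT5ca_213. With the beta-actin ratio in the model the STAT5ca differences were -3.92 for Cox7a1 and -2.46 for Ppargc1a.

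The paralogues of the members serve as a comparison within each family. Of 16 listed 13 were tested, 3 of them through the glands, and limma called 1 higher and 3 lower in STAT5ca tumours, and 0 higher and 3 lower in STAT5Δ750 tumours. Among all genes tested 13.9% were higher and 9.4% lower in STAT5ca tumours, and 9.29% and 10.4% in STAT5Δ750 tumours. Cox8a and Cox7a2, the forms of the oxidase subunits found in most tissues, were at 0.68 ± 0.27 and 0.14 ± 0.25 in STAT5ca tumours and 0.52 ± 0.28 and 0.06 ± 0.26 in STAT5Δ750 tumours, none past the threshold (limma adjusted p 0.0828 to 0.898). The small Cox7a2 values turned to -0.15 and -0.07 with the signals scaled as deposited, and to -0.14 and -0.12 under quantile normalization. Cox8c was at 0.18 and -0.03, and Cox7a2l, a factor of respiratory supercomplexes, at 0.63 and 0.27, with none past the threshold; Cox8c was at -0.08 in STAT5ca tumours with the deposited scaling. In STAT5ca tumours Cox8a passed without STAT5ca_159, at 0.81 (limma adjusted p = 0.0271), and Cox7a2l without STAT5ca_169, at 0.79 (adjusted p = 0.0267).

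Ucp3, the uncoupling protein of muscle, was at -2.70 ± 0.58 in STAT5ca and -2.87 ± 0.60 in STAT5Δ750 tumours. Cidec, the relative of Cidea that makes the large droplets of white adipocytes, had the largest difference of the paralogues tested, -4.75 ± 0.53 and -5.04 ± 0.54, and is also on the white adipocyte list. Both were called lower, but with at most 2 tumour arrays above 35.4 they were tested only because the glands were high, and no p is given. Elovl6, a lipogenic elongase, changed by -2.52 ± 0.63 and -2.31 ± 0.65 (limma adjusted p 0.0093 and 0.0197). Leaving out gland 6 ended both calls and leaving out gland 1 the second (adjusted p up to 0.0872).

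Elovl1, a widely used elongase, rose by 1.14 ± 0.34 in STAT5ca tumours (limma adjusted p = 0.0256) and stood at 0.62 ± 0.35 in STAT5Δ750 tumours (adjusted p = 0.230). Leaving out any gland ended this call (adjusted p up to 0.106), as did both other scalings, at 0.85 with the deposited one and 0.79 with quantile normalization. Elovl4, Elovl5 and Elovl7 were at 1.09, 0.93 and 1.0 in STAT5ca tumours and 0.57, 0.26 and 1.43 in STAT5Δ750 tumours. Ppargc1b and Pprc1, the relatives of Ppargc1a, were at -1.13 ± 0.57 and 0.35 ± 0.31 in STAT5ca tumours and -1.31 ± 0.58 and 0.43 ± 0.32 in STAT5Δ750 tumours. These 5 genes did not pass in either comparison in the model of all 16 arrays. Without STAT5ca_177, however, Elovl7 passed in both, at 1.46 in STAT5ca and 1.43 in STAT5Δ750 tumours (limma adjusted p 0.0192 and 0.0245), and it passed in STAT5Δ750 tumours with only the arrays of the compared groups (adjusted p = 0.0334).

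**Figure D3:**
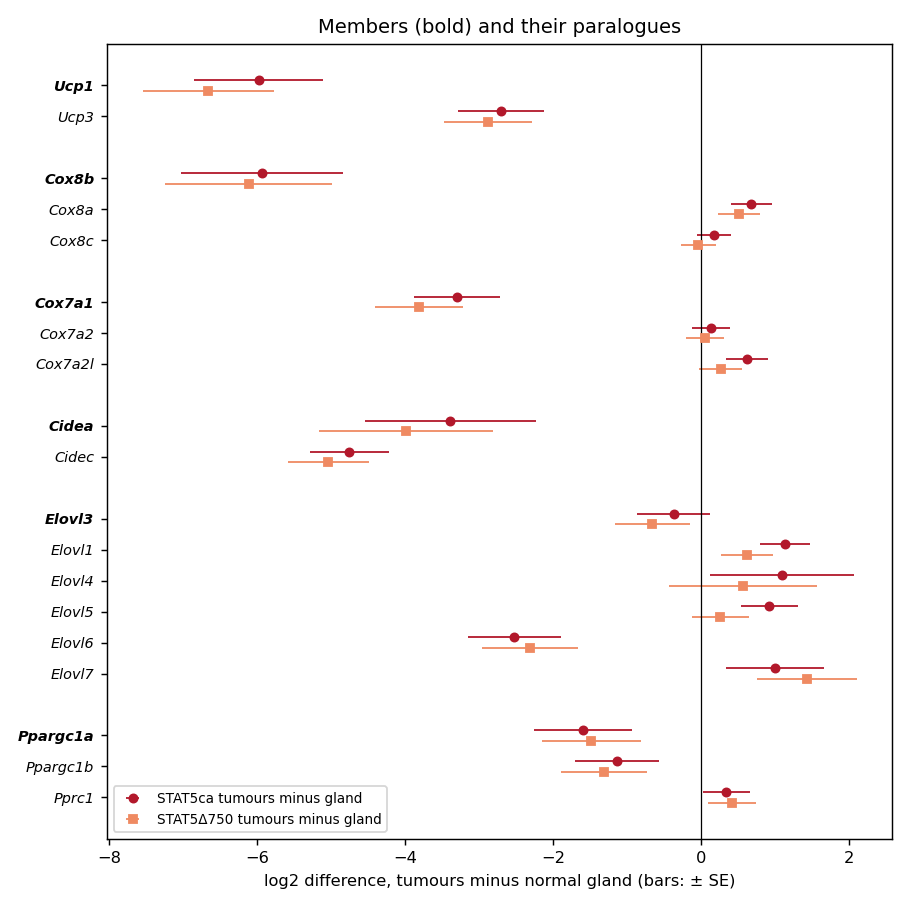
Log2 difference from normal gland (x axis; bars are ± SE of the limma model) in STAT5ca and STAT5Δ750 tumours for each of the 6 genes, in bold, and its paralogues. Ucp1 and Cox8b lie near -6, whereas Cox8a, Cox8c, Cox7a2 and Cox7a2l lie within 1 of zero.

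Of 31 listed genes of the respiratory chain that most cells share 29 were tested, and limma called 2 lower in STAT5ca tumours and 5 lower in STAT5Δ750 tumours, with 0 higher in either and medians of -0.25 and -0.44. Across all genes 9.4% were lower and 13.9% higher in STAT5ca tumours, and 10.4% and 9.29% in STAT5Δ750 tumours. The STAT5ca count of lower genes lies under that share. Ndufs1, a core subunit of complex I, changed by -1.15 ± 0.24 in STAT5ca and -0.99 ± 0.25 in STAT5Δ750 tumours (adjusted p 0.0033 and 0.0116), the second call being lost without gland 1 or 4. Sdhb of complex II changed by -0.95 ± 0.30 and -1.06 ± 0.31 (adjusted p 0.0339 and 0.0252), and both calls ended when gland 1 or 4 was left out (adjusted p up to 0.139), the first also without gland 6 or STAT5ca_171. Ndufs7 of complex I changed by -0.99 ± 0.32 in STAT5Δ750 tumours (adjusted p = 0.0374) and was at -0.54 ± 0.31 in STAT5ca tumours; the call ended without any one gland and without STAT5Δ750_254, STAT5Δ750_165 or STAT5Δ750_160, with adjusted p up to 0.180. In STAT5ca tumours Ndufs7 passed with the deposited scaling, at -0.84, with quantile normalization, at -0.87, and with the actin ratio as a covariate, at -1.21 (limma adjusted p 0.0318, 0.0219 and 0.0414).

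Of 60 other genes of brown fat biology 38 were tested, and limma called 2 higher and 12 lower in STAT5ca tumours, as against 1 higher and 16 lower in STAT5Δ750 tumours. Over all genes tested the calls were 13.9% higher and 9.4% lower in STAT5ca tumours, as against 9.29% higher and 10.4% lower in STAT5Δ750 tumours. With the signals scaled as deposited, the whole array gave 622 genes higher and 1226 lower in STAT5ca tumours, then 706 higher and 1299 lower in STAT5Δ750 tumours, in place of 1284 and 870 and of 860 and 963; quantile normalization gave 870 and 1138 in STAT5ca tumours. The median of all genes in STAT5ca tumours was then -0.02 and 0.06, in place of 0.25. In STAT5ca tumours the list then had 0 higher and 17 lower with the deposited scaling and 1 higher and 16 lower with quantile normalization. With the arrays brought to a common median its median log2 differences were -1.01 and -1.26. Of the 38 genes 11 reached the testing limit through the glands, and 7 of these were lower in each tumour type; of the other 27, 5 were lower in STAT5ca tumours and 9 in STAT5Δ750 tumours. Without STAT5ca_177 the STAT5ca tumours had 14 lower.

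Among signals and receptors 2 of 5 tested fell in STAT5ca and 3 of 5 in STAT5Δ750 tumours, beside 9.4% and 10.4% of all genes. Klb, the co-receptor through which Fgf21 acts on fat, had signals of 0.5 to 10.4 in STAT5ca and 1.5 to 13.4 in STAT5Δ750 tumours, against 111.6 to 141.3 in glands, and log2 differences of -3.11 ± 0.32 and -3.25 ± 0.33. Nrg4, a factor secreted by brown fat, had signals of 5.8 to 17.3 and 8.7 to 20.4, against 100.4 to 165.4 in glands, and differences of -2.41 ± 0.25 and -2.48 ± 0.26. Both genes were under 35.4 on every tumour array and were tested only because the glands were high, so no p is given. Thra, a thyroid hormone receptor, passed in STAT5Δ750 tumours at -0.88 ± 0.29 (limma adjusted p = 0.0454) and was at -0.23 ± 0.29 in STAT5ca tumours; its call was lost without any 1 of 12 arrays, among them each gland, with adjusted p up to 0.191. Dio2, which activates thyroid hormone in brown fat, was at -0.05 ± 0.41 and -0.70 ± 0.42 (adjusted p 0.941 and 0.257), and the first value was 0.07 under quantile normalization. Adrb3, the beta-adrenergic receptor of adipocytes, was not analysed here.

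Of 14 regulators tested 2 were higher and 4 lower in STAT5ca tumours, as against 1 higher and 5 lower in STAT5Δ750 tumours. The shares over all genes were 13.9% higher and 9.4% lower in STAT5ca tumours, and 9.29% and 10.4% in STAT5Δ750 tumours. The counts of higher regulators are near these shares, so nothing is read from them. Pparg, the nuclear receptor required for all adipocytes, had signals of 0.8 to 333.9 in STAT5ca and 5.2 to 35.6 in STAT5Δ750 tumours, against 260.6 to 493.5 in glands, and log2 differences of -3.63 ± 0.82 and -3.83 ± 0.84. Irf4, a transcription factor that works with Ppargc1a in brown fat and is also abundant in lymphocytes, changed by -3.34 ± 0.84 and -3.17 ± 0.86 (limma adjusted p 0.0095 and 0.0169), the second call being lost without gland 1 or 4. Lhx8, a homeobox gene used as a brown fat marker, had signals of 0.3 to 25.8 and 1.6 to 23.2, against 40.4 to 57.1 in glands, and differences of -1.78 ± 0.41 and -1.86 ± 0.42. Pparg, above 35.4 on 2 tumour arrays, and Lhx8, above it on 0, were called lower but also reached the testing limit through the glands, and no p is given.

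The 2 regulators that rose are used in many tissues. Nrf1, a factor for nuclear genes of mitochondria, rose by 0.99 ± 0.27 in STAT5ca and 1.02 ± 0.28 in STAT5Δ750 tumours (limma adjusted p 0.0158 and 0.0175), and both calls ended when gland 1 or 4 was left out (adjusted p up to 0.0887), the first also with the deposited scaling. Cebpb rose by 0.95 ± 0.32 in STAT5ca tumours (adjusted p = 0.0400) and was at 0.68 ± 0.32 in STAT5Δ750 tumours; this call was lost without any 1 of 8 arrays, among them each gland, with adjusted p up to 0.166, and under both other scalings, at 0.65 and 0.58. In STAT5Δ750 tumours Cebpb passed with the mean of its probe sets, at 1.18, and with only the arrays of the compared groups, at 0.68 (limma adjusted p 0.0269 and 0.0415). Ppara, which drives fatty acid oxidation, stayed at 0.5 to 2.4 in STAT5ca tumours, 0.8 to 6.4 in STAT5Δ750 tumours and 2.3 to 3.5 in glands and was not tested. Prdm16, the determinant of brown fat fate, was not analysed here.

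Of 19 genes of fuel handling and other effector functions 6 were lower in STAT5ca tumours, 8 in STAT5Δ750 tumours, and 0 higher in either. Of all genes 9.4% and 10.4% were lower and 13.9% and 9.29% higher in the same comparisons. Kcnk3, a potassium channel enriched in brown fat, was at -3.48 ± 0.26 and -3.54 ± 0.26. P2rx5, a purinergic receptor used as a brown fat surface marker, was at -2.41 ± 0.33 and -2.37 ± 0.34, and Plin5, a droplet protein that links droplets with mitochondria, at -2.33 ± 0.38 and -2.80 ± 0.39. All of these 3 were called lower, but they were under 35.4 on every tumour array and reached the testing limit through the glands, so no p is given.

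**Figure D4:**
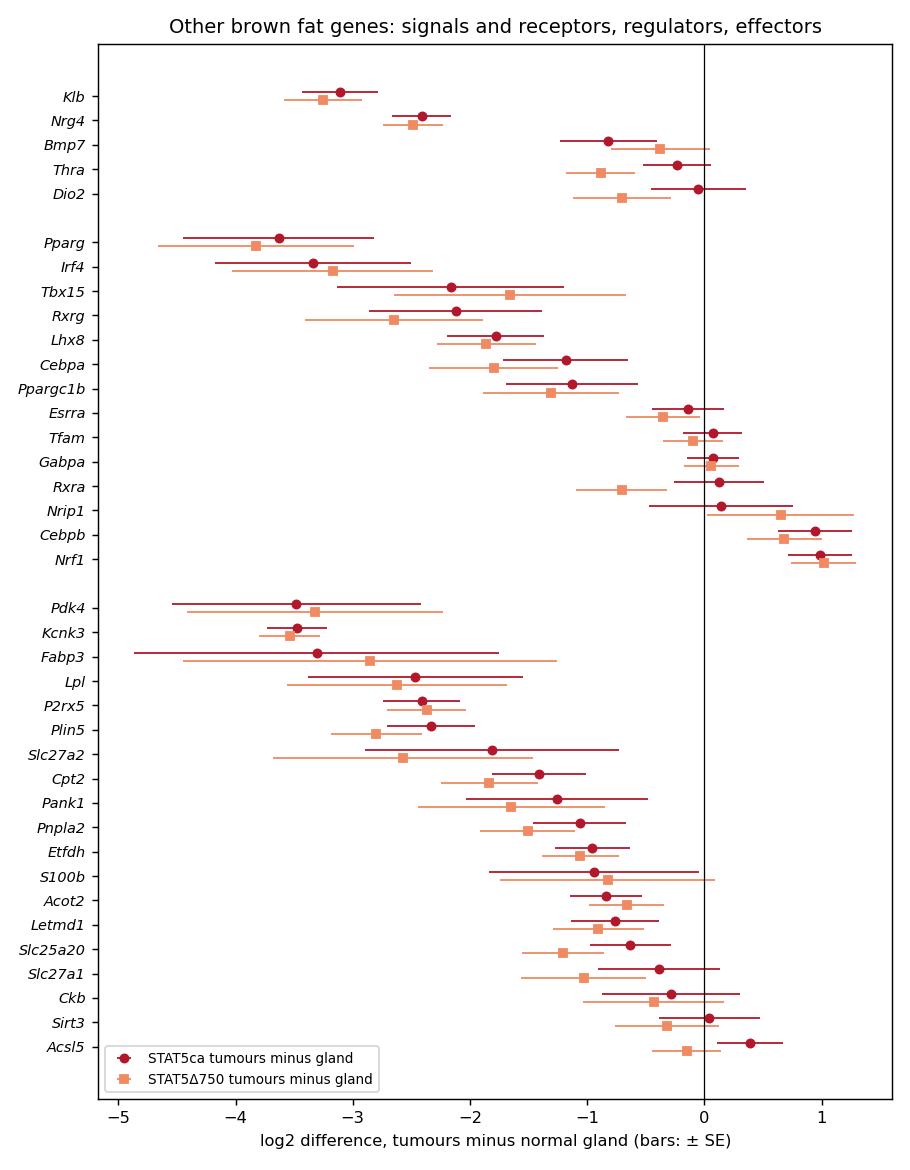
Log2 difference from normal gland (x axis; bars are ± SE of the limma model) in STAT5ca and STAT5Δ750 tumours for the 38 other brown fat genes tested, in 3 blocks from top to bottom: signals and receptors, regulators, fuel handling and other effectors. Klb, Pparg and Kcnk3 lie below -3, and Nrf1 lies near 1 in both.

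The 3 glands were not alike in the thermogenic genes. The Ucp1 signal was 10.6 times as high on gland 1 and 7.3 times as high on gland 4 as on gland 6. Elovl3 was 3.89 and 3.09 times, Cidea 2.36 and 2.09 times and Cox7a1 2.05 and 2.17 times as high, whereas Ppargc1a, at 1.56 and 1.54, and Cox8b, at 1.49 and 1.76, differed less. All 6 members were higher on glands 1 and 4 than on gland 6, and 4 of the 6 were at least 2-fold higher on both, as were 0.864% of the 9260 genes. With 1 gland on the lower side there is no test, and the pattern was chosen after its values were seen.

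Markers of fat and muscle in general did not follow this order. The white adipocyte sum on glands 1 and 4 was 0.887 and 0.822 times that on gland 6, and the muscle sum 0.956 and 1.15 times, and 0 of 13 adipocyte and 0 of 20 muscle markers were at least 2-fold higher on both glands. The median ratios to gland 6 were 0.935 and 0.862 over the adipocyte markers and 0.948 and 1.19 over the muscle markers. Adipoq, the hormone of all adipocytes, had signals of 4736.4, 4505.0 and 5063.4 on glands 1, 4 and 6. Single markers ran the members' way, as Pck1 at 1.88 and 1.67 times, Aqp7 at 1.44 and 1.77 and Myh2 at 1.65 and 1.74. Their ratios were near those of Ppargc1a and Cox8b. The luminal sum on glands 1 and 4 was 0.777 and 0.425 times that on gland 6, and Wap and Lalba, as given above, were highest on gland 6. The lymphocyte sums ran the same way as the members: on glands 1 and 4 the T cell sum was 1.35 and 1.7 times and the B cell sum 1.63 and 2.09 times that on gland 6. The endothelial sum was 0.922 and 0.772 times and the macrophage sum 0.778 and 0.802 times. The part of these cell types and of the milk genes in the pattern was not tested.

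Among the other brown fat genes 7 of 19 effectors tested were at least 2-fold higher on both glands 1 and 4 than on gland 6, or 36.8%, against 0 of 14 regulators, 0 of 5 signals and receptors, 0 of 13 paralogues and 0 of 29 shared respiratory chain genes. These 7 were Slc27a2, a fatty acid transporter, at 8.8 and 5.26 times, S100b, a calcium-binding protein of fat and glia, at 3.64 and 2.95, Letmd1, a mitochondrial protein needed for heat production in mouse brown fat, at 3.32 and 2.79, Pank1, an enzyme of coenzyme A synthesis, at 3.27 and 2.26, Plin5 at 2.75 and 2.03, Sirt3, a mitochondrial deacetylase, at 2.2 and 2.19, and Slc25a20, the carnitine carrier, at 2.09 and 2.15. Kcnk3 came close, at 2.82 and 1.96. Fabp3, a fatty acid binding protein of muscle, heart and brown fat, ran the other way at 0.328 and 0.446, as did Ucp3 at 0.373 and 0.721.

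When the 8353 genes above 35.4 on both glands 1 and 4 were ranked by the smaller of their 2 ratios, Ucp1 was at rank 2, Slc27a2 at 3, Elovl3 at 7, S100b at 10, Letmd1 at 14, Cidea at 33, Cox7a1 at 42, Ppargc1a at 235 and Cox8b at 288. This set was chosen for high signals on glands 1 and 4, with no limit on gland 6, which favours such ratios. Elovl3 was at only 15.2 on gland 6, under the testing limit. The ranks are a description and give no support to the pattern. The first place was held by Xist, the RNA that silences an X chromosome in female cells, with 1221.1, 1247.3 and 148.6 on glands 1, 4 and 6. Without gland 6 the difference of Ucp1 from gland was -7.07 in STAT5ca and -7.75 in STAT5Δ750 tumours, and that of Elovl3 was -0.87 and -1.15. On the remaining members leaving it out moved the differences by less, to -6.23 and -6.41 for Cox8b, -3.83 and -4.43 for Cidea, -3.72 and -4.23 for Cox7a1 and -1.85 and -1.73 for Ppargc1a.

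**Figure D5:**
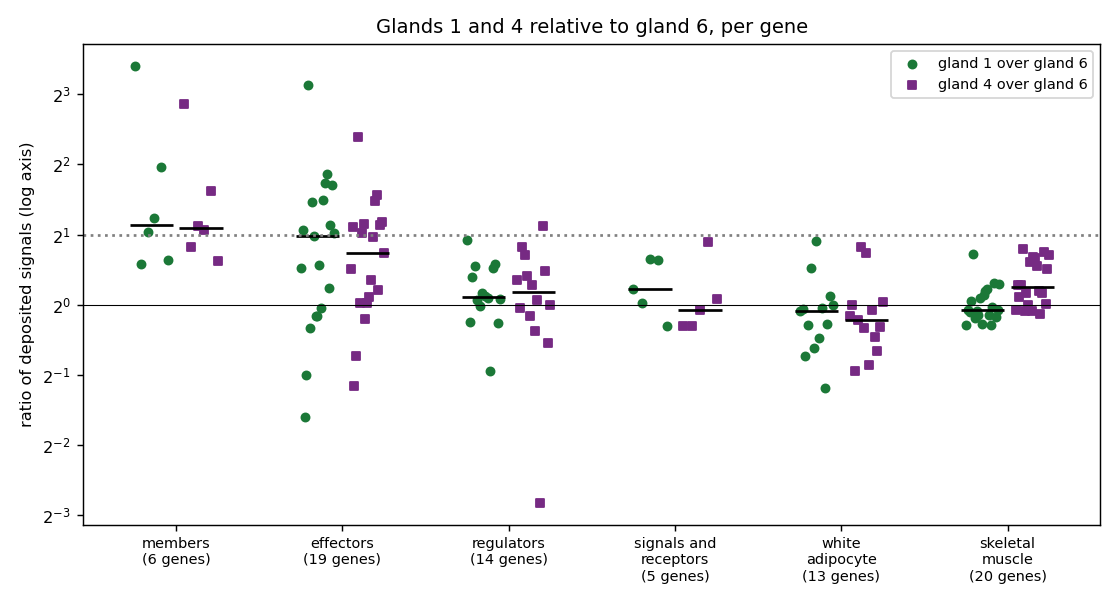
Ratio of the deposited signals (log axis) of gland 1 over gland 6 and of gland 4 over gland 6, 1 point per gene, for the 6 members and 5 lists, with the list median as a line and 2-fold dotted. Members and effectors reach above 2-fold on both sides, while white adipocyte and muscle markers stay below it.

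The members did not share 1 profile over the 16 arrays. Likeness was taken as the root mean square difference between log2 profiles, each centred on its own mean but not scaled. It therefore also reflects how strongly each gene varied. The smallest values between members were 1.34 for Elovl3 and Ppargc1a, 1.36 for Cox7a1 and Ppargc1a and 1.37 for Cidea and Cox7a1. The largest was 2.74, for Cox8b and Ppargc1a. The median gene lay at 0.904 from Elovl3, 1.29 from Ppargc1a and 1.74 from Cox7a1. Each pair with Ppargc1a was thus farther apart than Ppargc1a and the median gene. Over the 9259 other genes, the 3 nearest to Ucp1 were Pck1 at 1.15, Tmem45b at 1.21 and Cdo1 at 1.37, where the median gene was at 2.83. Nearest to Cox8b were Myoz1, a protein of the muscle Z-disc, at 0.944, Pde4dip at 0.994 and Adipoq at 1.03. Nearest to Cidea were Gpd1, the cytosolic glycerol phosphate dehydrogenase, at 0.983, Adig, an adipocyte gene, at 1.01 and Acacb, which makes malonyl-CoA at mitochondria, at 1.04.

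Cox7a1 lay nearest to Pkia, an inhibitor of protein kinase A, at 0.560, to Dmpk, a kinase of muscle, at 0.653 and to Coq8a, a mitochondrial protein of ubiquinone synthesis, at 0.675. Elovl3, which varied little, lay nearest to Casd1 at 0.428, Simc1 at 0.462 and Lrpprc at 0.475, where the median gene was at 0.904. Ppargc1a lay nearest to Nsmaf at 0.640, Ubr3 at 0.671 and Mterf2, a mitochondrial transcription factor, at 0.695. All these profiles share the same arrays and the same difference between tumours and glands, and they are a description with no test.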

How the data were processed

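Total RNA of snap-frozen tumours and of glands was extracted with TRIZOL and hybridised as biotin-labelled cRNA, per the labels' protocols. The authors deposited MAS5 signals, per the submitters' processing notes, which are intensities on a linear scale; the version, array batches and dates are not given in the sources used here. The deposited arrays share a trimmed mean near 250.1 and have medians of 57.3 to 90.7, and their number limits the precision. Detection calls were not used here.

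Of 22690 probe sets 20393 carried 1 gene symbol, 691 several and 1606 none in the annotation given. Signals were scaled to a common median of 75.93, raised by 7.9 (the 20th percentile of deposited values) and put on the log2 scale, which understates the change of low genes. Probe sets above 35.4 (the 40th percentile) on at least 3 arrays were kept, without control probe sets, and the one with the highest mean stood for its gene, leaving 9260 genes, among them all 6 members through 8 of 10 member probe sets. One limma model of the 3 groups (limma 3.58.1 in R 4.3.3, 13 residual degrees of freedom) gave differences, SE and two-sided p adjusted over all genes, called at 0.05. Tables and figures were made with Python 3.11.15 and matplotlib 3.10.9. The procedure was tested on simulated data. Members and lists were chosen with earlier results of these data known. Genes were named by rule: all members and paralogues, per role and comparison the 3 other brown fat genes with the smallest adjusted p in each direction among those that pass, with Adrb3, Dio2, Prdm16, Ppara and Pparg, the top 2 fat and muscle markers and the top 3 respiratory chain genes per comparison, and the 3 genes nearest to each member. Genes named for the gland 6 pattern, and Adipoq there, were chosen after their values were seen. Alternatives were other scalings, offsets, filters, probe set rules and limma settings, the actin ratio as a covariate, fewer groups in the model, and leaving out each array.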

Additional observations from a re-analysis of the deposited data

How the results depend on the processing

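No alternative turned the sign of a member's difference from gland. In STAT5Δ750 tumours the Ucp1 difference was -8.19 with an offset of 1, -4.95 with an offset of the 40th percentile, and -7.75 to -6.00 without 1 array, and Elovl3 ran from -1.15 to -0.35. With the actin ratio as a covariate, which takes part of the group difference with it, the STAT5ca differences were -3.92 for Cox7a1 and -2.46 for Ppargc1a. In STAT5ca minus STAT5Δ750 tumours Cox8b turned to -0.0076 with the larger offset and ran from -0.28 to 0.87 without 1 array, Elovl3 from -0.022 to 0.44 and Ppargc1a from -0.45 to 0.19.

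Genes called in STAT5ca tumours numbered 772 with the actin ratio and 1179 to 3039 without 1 array, those in STAT5Δ750 tumours 2826 with only the arrays of the compared groups and 835 to 2439 without 1 array, and those between tumour types 0 to 1. Other brown fat genes lower in STAT5ca tumours numbered 17 with the deposited scaling, 16 with quantile normalization, 5 with the 60th percentile filter, under which fewer genes are tested, 7 with the actin ratio and 8 to 14 without 1 array. In STAT5Δ750 tumours they numbered 9 with that filter and 8 to 17 without 1 array, the 8 arising without gland 1 or gland 4. Those higher in STAT5ca tumours numbered 0 with the deposited scaling and with the actin ratio, 1 with quantile normalization, with the stricter filter and with only the compared groups, and 0 to 2 without 1 array. Those higher in STAT5Δ750 tumours numbered 0 with the stricter filter, 2 with the mean of probe sets and with only the compared groups, and 0 to 1 without 1 array.

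Among single genes, signs turned for small differences. Cox7a2 was at -0.15, -0.14 and -0.34 in STAT5ca tumours and at -0.071, -0.12 and -0.23 in STAT5Δ750 tumours with the deposited scaling, quantile normalization and the actin ratio, and ran from -0.034 to 0.16 in STAT5Δ750 tumours without 1 array. Cox8c was at -0.085 in STAT5ca tumours with the deposited scaling and 0.072 in STAT5Δ750 tumours with the actin ratio, and without 1 array ran from -0.12 to 0.36 and from -0.32 to 0.15. Dio2 in STAT5ca tumours was at 0.068 with quantile normalization and 0.63 with the actin ratio, and ran from -0.31 to 0.15. With the actin ratio Elovl4 was at -0.44 in STAT5ca and -0.35 in STAT5Δ750 tumours, Elovl5 at -0.21 in STAT5Δ750 tumours and Pprc1 at -0.24 in STAT5ca tumours. In the same setting Irf4, Lhx8, Nrf1, Sdhb, Cebpb and Elovl1 lost their calls in STAT5ca tumours, Cebpb at 0.68 and Elovl1 at 0.74 (limma adjusted p 0.357 and 0.347). The causes were not tested. No paired analysis was possible because the groups share no replicate numbers. With 3 glands, MAS5 signals without detection calls and most tumour signals of Ucp1 near the offset, sizes of low genes are the least certain.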
